A study of Mus musculus with 6 samples.

Results

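The comparison described here is the later step of a short time course of DDX6 depletion: mouse embryonic stem (ES) cells after 6 h of the auxin analog 5-Ph-IAA, 2 libraries, against the same cells after 3 h, 2 libraries. These are 4 of the 6 RNA-seq libraries of the study, chosen by their labelled time, and all genes were compared. Both groups had received 5-Ph-IAA at 500 nM. The 2 libraries made before the analog was added (0 h) were left out of the comparison itself and served to estimate the spread and to compare the step from 3 to 6 h with the step from 0 to 3 h. All libraries came from 1 line, D6AdP, with DDX6-AID-mCherry on both alleles, DCP1a-EGFP/+ and OsTIR1-FLAG Tg. Its DDX6 thus bears an auxin-inducible degron and mCherry, part of its DCP1A is fused to EGFP, and the F-box protein OsTIR1, of plant origin, is expressed from a transgene. The cells were plated on mitomycin-C-treated fibroblast feeder cells in medium with leukemia inhibiting factor (LIF), PD0325901, which inhibits MEK, and CHIR99021, which inhibits GSK3. The libraries also held RNA of the feeder cells, and changes are not assigned to either cell type. No wells without the analog at 3 or 6 h, and no treated cells without the degron, were analysed here, so effects of the analog, of 3 more h in culture and of DDX6 loss cannot be told apart.

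DDX6 is a DEAD-box RNA helicase of the cytoplasm. It binds the CCR4-NOT deadenylase, the decapping machinery and the translational repressor 4E-T, is recruited to mRNAs by microRNAs through GW182 proteins, and is required for P-bodies, the granules in which repressed mRNAs and decapping factors such as DCP1A gather. In ES cells the CCR4-NOT and microRNA pathways are known to shape the balance between the naive state, kept by LIF and by inhibition of MEK and GSK3, and exit toward the primed epiblast. With OsTIR1, an auxin analog brings degron-tagged protein to a ubiquitin ligase and the proteasome.

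The libraries held 21310286 and 21843536 counts at 3 h and 16357142 and 18323611 at 6 h, so the floor of 3 counts was 0.137 to 0.183 CPM (counts scaled to a common library total). The test covered 15748 of 55487 genes. Replicates correlated across genes at r = 0.9958 (3 h) and 0.9943 (6 h) for log2 CPM and their counts varied beyond sampling noise, with a chi-square per degree of freedom of 2.07 and 7.08. Principal component 1 (43.1% of the variance) placed the 6 h libraries at 25.5 and 22.9 and the other 4 between -13.7 and -10.5. Whether the libraries of a group are from separate cultures is not stated, and p-values therefore measure just the spread among these libraries, possibly a technical one.

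The mRNA of the depleted protein was checked first. Ddx6 (ENSMUSG00000032097, chromosome 9, 44604892 to 44640731, GRCm38) measured 269 and 271 CPM at 3 h and 258 and 247 at 6 h. Its log2 fold change, 6 h minus 3 h throughout unless another contrast is named, was -0.10 ± 0.04 (standard error, SE) and it was not called (adjusted p = 0.0891). Since a degron removes protein and not mRNA, the values are no check of the depletion. Dcp1a, the tagged decapping cofactor, measured 88.5 and 86.7 CPM at 3 h and 81.3 and 80.7 at 6 h (-0.11 ± 0.04, adjusted p = 0.0745).

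Between 3 and 6 h the transcriptome changed in many small steps. With edgeR's quasi-likelihood test, at a Benjamini-Hochberg adjusted p under 0.05, 3414 genes were called (21.7% of those tested), 1558 higher (9.89%) and 1856 lower (11.8%). Without TMM scaling factors the split turned, with 2056 higher and 1296 lower in the comparison of 6 h against 3 h. The median size of a called change was 1.21-fold. At least 1.5-fold changes were seen in 353 called rises and 147 called falls, and at least 2-fold changes in 105 and 52. Called falls had a median average log2 CPM of 6.28 and called rises of 4.13. Among 1530 genes with an average log2 CPM of 7 to 9, 34.4% were called lower and 3.92% higher, and among 2511 genes at 1 to 3 the shares were 3.11% and 11.9%. Counts for the gene lists below are to be set beside these shares. Higher genes made up 45.6% of the calls, and 61.3% of them when libraries were scaled by their totals without TMM factors. The share went the other way with DESeq2, to 34.6% (501 higher and 948 lower), and with no filter on low counts, to 37.6%. DESeq2 called 1449 genes, all of them among the 3414. The calls also depended on having both 3 h libraries: leaving out replicate 1 of 3 h gave 1712 calls and leaving out replicate 2 gave 1514. They numbered 2157 without replicate 1 of 6 h.

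**Figure D1:**
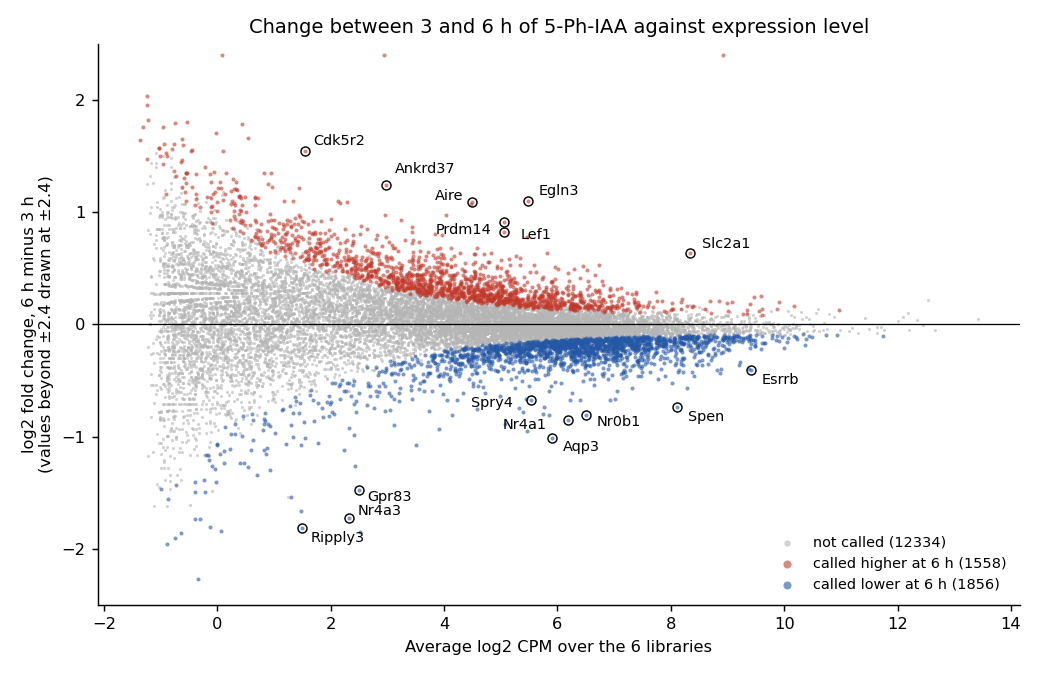
The fitted log2 fold change between 3 and 6 h (vertical axis) is plotted against the average log2 CPM over the 6 libraries (horizontal axis), 1 point per gene tested, red for 1558 genes called higher and blue for 1856 called lower. Blue points crowd the right side, where genes are abundant, and the points farthest from 0 lie on the left.

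Among the genes that fell most was the NR4A family. NR4A1, NR4A2 and NR4A3 are orphan nuclear receptors encoded by immediate early genes, whose mRNAs are short-lived and whose promoters are classical targets of the cyclic AMP response factor CREB. Nr4a3 (chromosome 4, 48045153 to 48086447) measured 5.44 and 5.64 CPM at 3 h and 1.75 and 1.61 at 6 h. The 6 h libraries lay far below those of 3 h, and the mean fell by 69.7% (log2 fold change -1.72 ± 0.18, adjusted p = 7.79e-06). Nr4a1 (chromosome 15, 101254269 to 101274795) was far more abundant and measured 85.2 and 79.1 CPM at 3 h and 45.4 and 45.8 at 6 h (-0.85 ± 0.05, adjusted p = 1.65e-08). Nr4a2, chosen after its values were seen, went the same way, with 5.53 and 5.69 CPM at 3 h and 2.77 and 3.11 at 6 h (-0.93 ± 0.16, adjusted p = 0.000608). In all 3 genes the groups did not overlap, as was so in 60.8% of all genes tested (either direction), and all 3 calls held in the 6 fits that left out a library each and with DESeq2.

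The promoters of these 3 genes are printed because they share a feature that the counts did not use. Each window runs from 250 bases before to 50 after the RefSeq start (GRCm38.p6), 5′ to 3′ on the gene's strand, and capitals mark TGACG, the core of the cyclic AMP response element, on either strand (CGTCA on the printed strand). The windows are chr15:101266596-101266895 (plus strand) for Nr4a1, chr2:57123954-57124253 (minus strand) for Nr4a2 and chr4:48045055-48045354 (plus strand) for Nr4a3.
Nr4a1: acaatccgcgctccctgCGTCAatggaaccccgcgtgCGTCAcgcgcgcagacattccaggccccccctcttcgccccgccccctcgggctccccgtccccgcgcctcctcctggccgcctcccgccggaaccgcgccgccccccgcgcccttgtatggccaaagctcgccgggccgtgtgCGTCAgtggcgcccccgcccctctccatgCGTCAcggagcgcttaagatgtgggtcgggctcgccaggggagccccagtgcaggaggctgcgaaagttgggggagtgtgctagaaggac
Nr4a2: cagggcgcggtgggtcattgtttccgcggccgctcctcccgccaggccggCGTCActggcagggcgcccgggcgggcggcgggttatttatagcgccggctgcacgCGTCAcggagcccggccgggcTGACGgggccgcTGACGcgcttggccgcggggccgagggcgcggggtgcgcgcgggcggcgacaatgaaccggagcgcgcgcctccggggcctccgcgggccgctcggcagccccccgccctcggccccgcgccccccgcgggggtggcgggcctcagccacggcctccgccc
Nr4a3: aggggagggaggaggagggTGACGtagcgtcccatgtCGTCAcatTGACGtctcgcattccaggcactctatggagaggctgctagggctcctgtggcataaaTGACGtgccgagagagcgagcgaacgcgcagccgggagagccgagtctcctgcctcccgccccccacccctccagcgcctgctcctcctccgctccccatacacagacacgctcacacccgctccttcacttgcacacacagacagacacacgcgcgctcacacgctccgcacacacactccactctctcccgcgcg
Each window holds 4 such cores. Of 32851 RefSeq promoters of the same length, 20.8% hold at least 1 and 76 (0.231%) hold 4 or more. At least 1 core was in 41.8% of 1433 promoters of genes called lower, 28.7% of 1195 of genes called higher and 33.5% of 8525 of genes not called. The share with 4 or more was not counted among these genes. The other motifs searched had the same order, so it is not particular to this core. The E-box CACGTG was in 17.0%, 8.95% and 11.0%, and the E2F site TTTCCCGC in 3.77%, 1.84% and 2.15%. Such matches are a description of the letters and not evidence of binding.

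Immediate early genes that passed the test all fell. Of 37 tested 16 fell and none rose, with a median log2 fold change of -0.20, where the median over all genes tested was 0.0052. The share called lower was 43.2%, against 11.8% of all genes tested, of which 9.89% were called higher. Among all genes at an average log2 CPM of 5 to 7 and 7 to 9, 19.2% and 34.4% were called lower. Klf10, a TGF-beta-inducible repressor, measured 134 and 134 CPM at 3 h and 93.9 and 96.8 at 6 h (-0.49 ± 0.04, adjusted p = 4.07e-07). Gadd45b, a stress-induced adaptor of p38 signalling, measured 28.4 and 27.7 CPM at 3 h and 19.8 and 18.4 at 6 h (-0.56 ± 0.07). Chosen after their values were seen, the polo-like kinase gene Plk3 fell by 0.55 on the log2 scale and Ier3 by 0.38. Also chosen so, Egr2 (-0.94 ± 0.32, adjusted p = 0.0453) and Fosb (-0.70 ± 0.22, adjusted p = 0.0295) were called near the threshold. DESeq2 did not call Fosb and gave no adjusted p for Egr2. Between 11 and 16 members were called lower when a library was left out, and 2 were called higher without scaling factors.

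Of 20 feedback genes of the FGF and ERK pathway 8 fell, 2 rose and 10 were not called, with a median of -0.22, and Spry4 had already fallen by 3 h. These genes are switched on by ERK and encode its own brakes, and the MEK inhibitor in the medium acts on this pathway in every group. Spry4, a Sprouty inhibitor of receptor tyrosine kinase signalling (chromosome 18, 38586247 to 38601415), measured 66.3 and 61.9 CPM at 0 h, 44.98 and 45.1 CPM at 3 h and 27.3 and 28.99 at 6 h. The log2 fold change was -0.51 over the first 3 h and -0.68 ± 0.06 over the second. Both steps were called, and the difference between them, -0.17, was not (adjusted p = 0.33). Il17rd, a membrane-bound inhibitor of FGF signalling, measured 114 and 120 CPM at 3 h and 86.2 and 84.2 at 6 h (-0.46 ± 0.04, adjusted p = 1.23e-06). Spry2 fell by 0.28 and the ERK-responsive factor gene Etv5 by 0.21. The ERK phosphatase genes Dusp4 (-0.49) and Dusp6 (-0.27), chosen after their values were seen, were also called lower, Dusp4 not without replicate 1 of 3 h and Dusp6 not with DESeq2. With DESeq2, without either 3 h library, or without replicate 2 of 6 h, 5 members of the list were called lower.

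Of 22 targets of LIF and STAT3 11 fell, 1 rose and 10 were not called (median -0.15). LIF acts through the gp130 receptor to activate STAT3, which supports self-renewal of mouse ES cells. Pim3, a serine/threonine kinase gene, measured 145 and 146 CPM at 3 h and 89.97 and 92.8 at 6 h (-0.67 ± 0.04, adjusted p = 2.78e-08). Pim1, of the same family, measured 100.1 and 93.1 CPM at 3 h and 72.00 and 70.3 at 6 h (-0.44 ± 0.05, adjusted p = 5.68e-06). The SOCS genes encode feedback inhibitors of cytokine receptors. Socs3 measured 172 and 166 CPM at 3 h and 124 and 138 at 6 h (-0.37 ± 0.05), and Socs2 fell by 0.45.

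Several of these mRNAs carry AU-rich elements, stretches of ATTTA pentamers in the 3′ UTR that recruit decay factors. The 30-base windows below show the densest run in the 3′ UTR of 4 mRNAs that fell (GENCODE M21, GRCm38, strand of the gene, pentamers in capitals), since such elements are how these short-lived mRNAs are usually recognised.
Pim1: tgtATTTATTTATTTATTTAtttggttgcc
Pim3: gctATTTAttgtttaATTTAtttgctgagg
Socs3: tatATTTAtATTTAtactcagaaaagaaac
Plk3: tttATTTAttaacagacATTTATTTAttgg
The windows are at chr17:29495694-29495723 (Pim1), chr15:88865277-88865306 (Pim3), chr11:117966129-117966158 (Socs3) and chr4:117128708-117128737 (Plk3). The Pim1 and Pim3 3′ UTRs hold 5 pentamers each in 1365 and 964 bases, and those of Socs3 and Plk3 hold 4 each in 1474 and 332 bases. Known AU-rich mRNAs did not all fall. Of 25 tested 7 fell and 3 rose, with a median of -0.07. Ptgs2, which encodes cyclooxygenase 2 and was chosen after its values were seen, measured 155 and 141 CPM at 3 h and 117 and 95.9 at 6 h (-0.48 ± 0.07, adjusted p = 0.000116), whereas the glucose transporter gene Slc2a1 rose. Across all 13515 genes with a 3′ UTR of at least 50 nt, the share called lower was 9.87% with no pentamer and 18.0% with 7 or more, and the share called higher was 8.89% and 11.6%. The median log2 fold changes of these groups were 0.009 and -0.001. Longer 3′ UTRs hold more pentamers. Among 3′ UTRs of 2000 to 4000 nt the share called lower was 13.4% with 0 to 2 pentamers and 17.0% with 6 or more, and the share called higher was 17.1% and 11.2%, so that the share called higher ran in the opposite order to that over all lengths.

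Of 24 genes for proteins that bind such elements and for Regnase and Roquin 9 fell and 1 rose (median -0.05), 2 and 3 falling without replicate 1 and 2 of 3 h. Zc3h12a, the endonuclease Regnase-1, measured 26.8 and 27.4 CPM at 3 h and 18.7 and 19.6 at 6 h (-0.50 ± 0.07, adjusted p = 0.000124). Rc3h2, a Roquin, fell by 0.23 (not called without replicate 2 of 3 h), and Tia1, a stress granule protein, rose by 0.25.

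**Figure D2:**
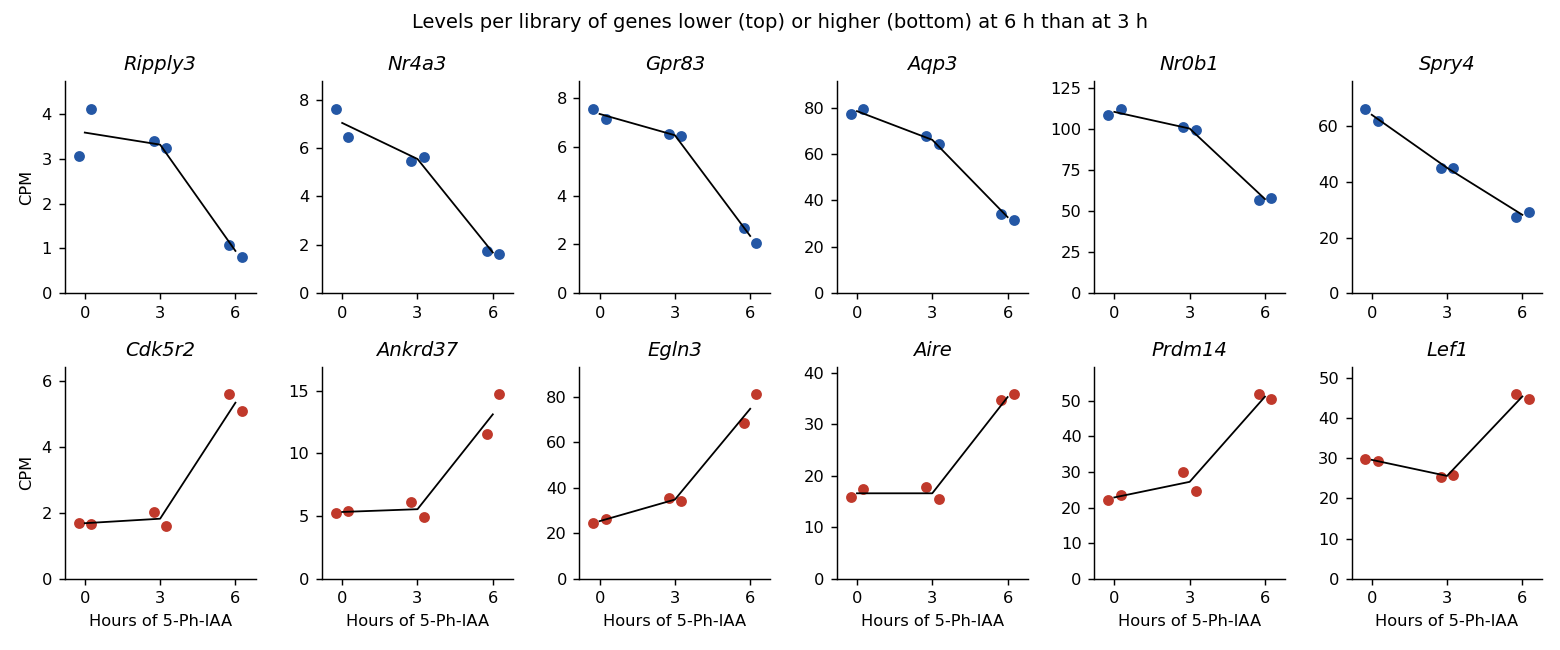
CPM in each library (vertical axis, from 0) is plotted against hours of 5-Ph-IAA (horizontal axis) for 6 genes lower and 6 genes higher at 6 h than at 3 h, with points for libraries and lines through the group means. In each panel the 6 h points lie outside the range of the 3 h points, and in most the larger step is the one from 3 to 6 h.

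The largest falls outside these pathways were spread over unrelated functions. Ripply3, a corepressor that works with T-box factors, measured 3.41 and 3.24 CPM at 3 h and 1.08 and 0.805 at 6 h (-1.82 ± 0.26, adjusted p = 0.000118). Gpr83, a G protein-coupled receptor, measured 6.53 and 6.43 CPM at 3 h and 2.65 and 2.04 at 6 h (-1.47 ± 0.16, adjusted p = 1.14e-05). Aqp3, an aquaporin that also passes glycerol (chromosome 4, 41092722 to 41098183), measured 67.9 and 64.4 CPM at 3 h and 34.1 and 31.6 at 6 h, and the mean fell by 50.4% (-1.01 ± 0.05, adjusted p = 7.91e-09). Pudp, a pseudouridine monophosphatase, fell by 1.67 on the log2 scale, the collagen gene Col20a1 by 1.54 and the sialyltransferase gene St6galnac3 by 1.26. Smaller falls by the same ranking were in the bradykinin receptor gene Bdkrb2 (-1.12), the mitochondrial carrier gene Slc25a47 (-1.07), Fam189a2 (-1.07), the adhesion gene Amigo3 (-1.07) and the homeobox gene Hoxc12 (-1.01). With Nr4a3 these are the 12 largest falls by the naming rule, and all held their call in every fit that left out a library, except Amigo3 without replicate 1 of 3 h. When the mean of the feeder fibroblast markers was a covariate, Slc25a47 and Amigo3 were not called. Ripply3, Pudp, Col20a1, Slc25a47, Amigo3 and Hoxc12 were under 4 CPM at 3 h.

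The largest rises were led by Cdk5r2, which encodes p39, an activator of the kinase CDK5. It measured 2.03 and 1.62 CPM at 3 h and 5.61 and 5.099 at 6 h, a fitted 2.92-fold rise (1.55 ± 0.18, adjusted p = 2.23e-05). Aire, the autoimmune regulator known from the thymus, measured 17.8 and 15.4 CPM at 3 h and 34.8 and 35.9 at 6 h (1.09 ± 0.08, adjusted p = 9.75e-08), and Trerf1, a transcriptional regulator, 15.99 and 16.5 CPM at 3 h and 34.5 and 33.9 at 6 h (1.07 ± 0.07, adjusted p = 3.13e-08). In both the 0 h and 3 h libraries were close together, with 15.8 and 17.4 CPM at 0 h for Aire and 17.4 and 16.5 for Trerf1. L3mbtl3, a reader of methylated lysines, measured 12.9 and 12.3 CPM at 3 h and 25.99 and 23.5 at 6 h (0.97 ± 0.09). The kinesin gene Kif26a rose by 1.22, Etfbkmt, a mitochondrial methyltransferase gene, by 1.10, Stra6l by 1.10 and Dagla, which encodes a diacylglycerol lipase, by 1.09. The zinc finger gene Zscan2 and Ppp1r3b, a glycogen-targeting phosphatase subunit, rose by 0.97 and 0.97. With Ankrd37 and Egln3 these are the 12 largest rises by the rule, and only Stra6l lost its call when a library was left out, replicate 1 of 3 h.

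Genes of glucose uptake, glycolysis and the hypoxia response rose more often than they fell. Hypoxia-inducible factors (HIF) are degraded after hydroxylation by the EGLN prolyl hydroxylases, and Egln3 is itself a HIF target. Of 38 tested 12 rose and 2 fell (31.6% and 5.26%), with a median of 0.05. For comparison, the shares over all genes tested were 9.89% and 11.8%, and the median there was 0.0052. Egln3 (chromosome 12, 54178981 to 54203860) measured 24.6 and 26.1 CPM at 0 h, 35.6 and 34.1 CPM at 3 h and 68.4 and 81.2 at 6 h. It rose by 0.46 on the log2 scale in the first 3 h and by 1.10 ± 0.07 in the second (adjusted p = 2.78e-08). Ankrd37, a small ankyrin-repeat gene and known HIF target, measured 6.15 and 4.95 CPM at 3 h and 11.5 and 14.7 at 6 h (1.25 ± 0.14, adjusted p = 9.33e-06). Another gene lies on the opposite strand over 26.4% of its exon length. The library kit keeps the strand, but the setting used in counting is not given in the sources used here, so such partners could not be separated. Slc2a1, the transporter GLUT1, measured 286 and 274 CPM at 3 h and 409 and 459.7 at 6 h (0.63 ± 0.05, adjusted p = 1.44e-07), and the lactate exporter gene Slc16a3 80.2 and 75.8 CPM at 3 h and 108 and 115 at 6 h (0.52 ± 0.05, adjusted p = 1.1e-06). The histone demethylase gene Kdm3a, also a known HIF target, fell by 0.31. Among those chosen after their values were seen, Pfkfb3, a regulator of glycolytic flux, rose by 0.40 (not called without replicate 2 of 6 h), and Vegfa measured 68.3 and 66.5 CPM at 3 h and 70.3 and 68.97 at 6 h and was not called (0.05 ± 0.04, adjusted p = 0.497). DESeq2 called 7 members higher, as did the fits that left out replicate 2 of 3 h or replicate 2 of 6 h.

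The letters ACGTG, the core of the HIF response element, occur in the promoter windows of 25 of the 35 list genes with a RefSeq window, against 19.6% of all 32851 promoters. Across genes tested the share was 25.9% for those called higher, 34.5% for those called lower and 28.2% for those not called. The windows of Ankrd37 (chr8:45999801-46000100, minus strand) and Slc16a3 (chr11:120948817-120949116, plus strand) are shown because each holds 2 cores, given in capitals where they occur, in members that rose.
Ankrd37: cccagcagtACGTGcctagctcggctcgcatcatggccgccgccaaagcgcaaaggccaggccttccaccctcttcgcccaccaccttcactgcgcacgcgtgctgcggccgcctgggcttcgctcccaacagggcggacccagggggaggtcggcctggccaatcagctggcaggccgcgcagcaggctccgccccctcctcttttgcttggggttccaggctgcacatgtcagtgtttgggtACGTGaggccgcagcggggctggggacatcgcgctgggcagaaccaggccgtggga
Slc16a3: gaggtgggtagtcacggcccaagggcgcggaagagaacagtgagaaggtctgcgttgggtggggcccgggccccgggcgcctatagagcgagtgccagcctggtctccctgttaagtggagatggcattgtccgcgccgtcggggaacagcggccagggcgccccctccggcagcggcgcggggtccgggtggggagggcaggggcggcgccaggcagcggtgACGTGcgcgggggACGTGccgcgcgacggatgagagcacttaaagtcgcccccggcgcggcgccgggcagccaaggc
The windows of Egln3 and Slc2a1 hold 1 core each.

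Most naive pluripotency genes fell, while Nanog, Sox2 and Pou5f1 were not called. Of 24 tested 14 fell and 1 rose (58.3% and 4.17%), with a median of -0.18. The share called lower was 11.8% over all genes tested and 34.4% at an average log2 CPM of 7 to 9. Nr0b1, which encodes the orphan receptor DAX1 (chromosome X, 86191764 to 86195947), measured 102 and 99.5 CPM at 3 h and 56.98 and 57.9 at 6 h, and the mean fell by 42.8% (-0.81 ± 0.04, adjusted p = 7.91e-09). Esrrb, an estrogen-related receptor of the naive network, measured 744 and 733 CPM at 3 h and 544 and 567 at 6 h (-0.41 ± 0.03, adjusted p = 4.94e-07). Fbxo15 fell from 152 to 111 CPM (-0.45 ± 0.04). The rise was in Prdm14, a repressor that keeps DNA methylation low in naive cells (chromosome 1, 13113457 to 13127163), with 29.9 and 24.5 CPM at 3 h and 51.8 and 50.5 at 6 h (0.91 ± 0.07, adjusted p = 5.01e-07). Named after their values were seen, Nanog measured 705 and 699 CPM at 3 h and 692 and 711 at 6 h, Sox2 447 and 428 CPM at 3 h and 428 and 455 at 6 h and Pou5f1 (OCT4) 646 and 636 CPM at 3 h and 609 and 631 at 6 h. None of the 3 was called (adjusted p = 0.999, 0.868 and 0.297). Klf4, chosen likewise, rose by 0.28 in the first 3 h and fell by 0.11 in the second, the latter a call that DESeq2 did not make.

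The other pluripotency lists were mixed. Of 13 core and self-renewal genes 3 fell and 2 rose (median -0.05), and none rose with DESeq2, without either 3 h library or without replicate 2 of 6 h. Sall4 measured 398 and 395 CPM at 3 h and 341 and 336 at 6 h (-0.23 ± 0.04) and Zfp281 fell by 0.22, while Foxd3 (-0.33) and Mycn (0.19) lost their calls in 2 and 3 fits without a library. Of 17 primed epiblast genes, which rise as cells leave the naive state, 6 rose and 1 fell (median 0.22), 3 rising without either 3 h library. Lef1, a transcription factor of the Wnt pathway (chromosome 3, 131110471 to 131224356), measured 29.8 and 29.4 CPM at 0 h, 25.3 and 25.8 CPM at 3 h and 45.8 and 44.8 at 6 h, so that it was lowest at 3 h (0.82 ± 0.06, adjusted p = 7.41e-08). Sall2, a zinc finger gene, measured 5.16 and 6.29 CPM at 3 h and 9.65 and 10.2 at 6 h (0.80 ± 0.13, adjusted p = 0.000397). Dnmt3a, a de novo DNA methyltransferase, measured 63.7 and 62.9 CPM at 3 h and 77.5 and 76.2 at 6 h (0.28 ± 0.05, adjusted p = 0.000685). Otx2, a factor of formative and primed cells chosen after its values were seen, measured 4.73 and 5.18 CPM at 3 h and 6.09 and 11.00 at 6 h. Its 6 h libraries differ widely (0.80 ± 0.20, adjusted p = 0.0103), and DESeq2 did not call it. Genes of the rare 2-cell-like state had the lowest median of all lists, -0.79 over 10 genes, with 3 called lower. The genes are at low level, Zscan4b with 0.426 and 0.879 CPM at 3 h and 0.121 and 0.215 at 6 h and Zscan4a with 3.03 and 2.78 CPM at 3 h and 1.93 and 1.45 at 6 h, and the Zscan4 copies are nearly identical. DESeq2, which gave no adjusted p for these 2, called none of the list, and neither did the fits without replicate 2 of 3 h or of 6 h.

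By median log2 fold change, markers of the ES cells and of the feeder fibroblasts moved in opposite directions between the groups. The summed CPM of the feeder markers overlapped, with 29690 in replicate 2 of 6 h and 29790 in replicate 1 of 3 h. No marker of either list was at 0 in any library. The 16 ES markers summed to 6818 and 6830 CPM at 3 h and 6103 and 6293 at 6 h, with 8 called lower and none higher (median -0.13). Those called lower include Cdh1, the E-cadherin gene (-0.26), and L1td1 (-0.23). The 34 feeder markers summed to 29790 and 29150 CPM at 3 h and 33210 and 29690 at 6 h, with 13 called higher and none lower (median 0.13). Without replicate 2 of 6 h 28 were called higher, and 6 or 7 without each other library of 3 or 6 h. Those called include Bgn (biglycan, 0.20), Col6a3 (0.21), Prrx1 (0.28) and Thy1 (0.22). The mean log2 CPM of the feeder list was 8.391 and 8.383 at 3 h and 8.598 and 8.449 at 6 h, and 8.596 and 8.48 at 0 h, so 3 h lay lowest. Fewer cells of a type and less RNA per cell cannot be told apart in such bulk samples. Counts of any gene in this report pool both cell types, and the cell type in which a gene changed was not tested. The part of the feeder cells in the pluripotency results was not tested beyond 1 measurement: with the feeder mean as a covariate, 10 naive genes were called lower and 3 higher, the log2 fold change of Nr0b1 was -0.77, that of Esrrb -0.34 and that of Prdm14 0.91, and all 3 stayed called. That fit called 2148 genes in all, and 15 of the 3414 had the other sign there. Ddx6 (-0.18) and Sox2 (0.11) were called in it but not in the fit without the covariate. In it 6 feeder markers were called higher and 8 lower.

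**Figure D3:**
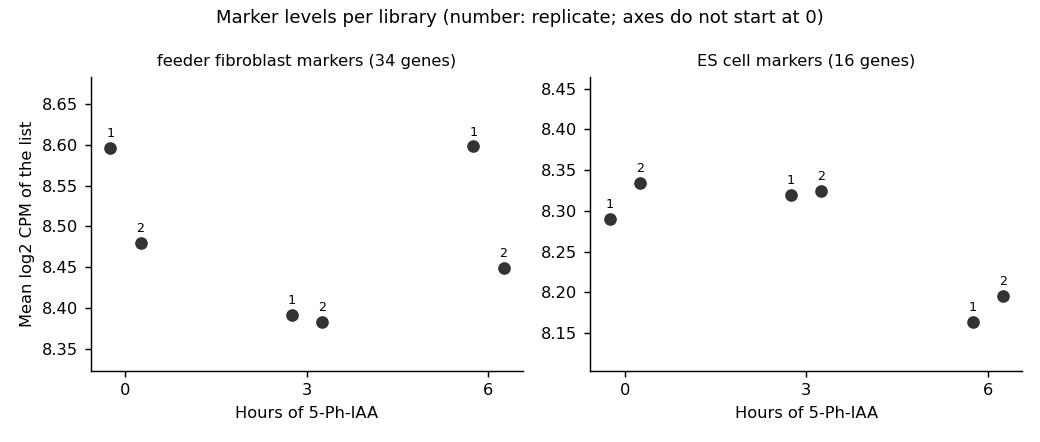
The mean log2 CPM of 34 feeder fibroblast markers (left) and 16 ES cell markers (right) is plotted for each library against hours of 5-Ph-IAA, with the replicate number above each point and axes that do not start at 0. Feeder markers are lowest at 3 h, at 8.391 and 8.383, and ES markers are lowest at 6 h, at 8.164 and 8.196.

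Signalling lists beyond ERK and LIF held a few strong members. Of 22 Wnt targets 6 rose and 1 fell (median 0.02), 2 rising without replicate 2 of 3 h and 3 without replicate 1 of 6 h. Besides Lef1, the TNF receptor family gene Tnfrsf19 measured 11.9 and 11.3 CPM at 3 h and 16.7 and 14.98 at 6 h (0.44 ± 0.09, adjusted p = 0.00239), Tcf7 rose by 0.21 and the feedback gene Axin2 fell by 0.18, the last 2 not called by DESeq2. With the feeder covariate Tnfrsf19 was at 0.33 and not called. Of 19 Nodal and Lefty genes 4 rose and 3 fell (median 0.02), and 5 rose and 1 fell without replicate 1 of 3 h. Lefty1, a secreted Nodal antagonist, measured 51.1 and 47.8 CPM at 3 h and 29.3 and 28.4 at 6 h (-0.78 ± 0.06, adjusted p = 1.57e-07), whereas its neighbour family member Lefty2, chosen after its values were seen, measured 198 and 208 CPM at 3 h and 198 and 187 at 6 h and was not called (adjusted p = 0.18). Smad3, an effector of Nodal and TGF-beta, measured 23.5 and 23.7 CPM at 3 h and 32.5 and 36.8 at 6 h (0.55 ± 0.07), the T-box gene Eomes rose by 0.35 and the receptor gene Acvr1b by 0.29. Of 17 BMP and SMAD targets 4 fell and 1 rose (median -0.06). Id2, which encodes an inhibitor of bHLH factors, measured 24.7 and 28.1 CPM at 3 h and 15.9 and 15.3 at 6 h (-0.76 ± 0.08, adjusted p = 4.38e-06). Id1 fell by 0.41 and Gata2 by 0.69, the latter from 10.3 to 6.37 CPM. Gata2 was at -0.44 and not called with the feeder covariate.

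Notch genes were lower in 4 of 18 cases with none higher (median -0.02). Rbpj, the DNA-binding partner of Notch, measured 191 and 192 CPM at 3 h and 142 and 154 at 6 h (-0.37 ± 0.04, adjusted p = 1.22e-05), and the target Hes1 fell by 0.26. The ligand gene Dll1 was at 2.88 and 1.76 CPM at 3 h and 0.784 and 1.07 at 6 h, and its call was lost without replicate 1 of 3 h or of 6 h, where 2 members of the list were called lower. Of 23 Hippo pathway and YAP target genes 5 rose and 5 fell (median -0.05), and 1 or 2 rose without either 3 h library or without replicate 1 of 6 h. The LIM protein gene Ajuba measured 153 and 147 CPM at 3 h and 112 and 110.1 at 6 h (-0.44 ± 0.04, adjusted p = 9.94e-07), and Tead1, the DNA-binding partner of YAP, fell by 0.36. The 2 angiomotin-like genes went opposite ways, Amotl2 by -0.29 and Amotl1 by 0.38.

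Regulators of the germ layers showed isolated changes. Of 12 endoderm genes 1 rose and 2 fell (median 0.15), of 13 mesoderm genes 2 rose and 2 fell (0.28), of 13 neuroectoderm genes 1 rose and 1 fell (0.03) and of 14 trophectoderm genes 2 rose and 3 fell (0.06). Endoderm genes called higher numbered 5 without scaling factors, 3 and 5 when replicate 1 and 2 of 0 h were left out, 4 when replicate 2 of 6 h was, and none when replicate 2 of 3 h was or with DESeq2. Snai1 fell by 0.44 and Snai2 rose by 0.51, both genes for zinc finger repressors of epithelial fate. Sox7 measured 3.83 and 3.61 CPM at 3 h and 2.05 and 2.15 at 6 h (-0.82 ± 0.18), the trophectoderm factor gene Tead4 fell by 0.27 and Elf3, of epithelia, measured 121 and 118 CPM at 3 h and 142 and 157 at 6 h (0.33 ± 0.05). Lama1 (-0.33), Evx1 (-0.71), Neurog1 (-0.68) and Gata4 (0.75) were called, but each lost its call in 2 or more fits without a library. Medians of the endoderm and mesoderm lists lay near or above the feeder median of 0.13.

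Among nuclear receptors 10 of 28 fell and 3 rose (median -0.06). The falls included the NR4A genes, Nr0b1 and Esrrb, and of the rises Rxra, a partner of many receptors chosen after its values were seen, measured 28.4 and 27.02 CPM at 3 h and 39.7 and 38.8 at 6 h (0.50 ± 0.06, adjusted p = 1.78e-05). Rarb, a retinoic acid receptor gene chosen likewise, was at 0.378 and 0.463 CPM at 3 h and 1.08 and 1.02 at 6 h and was called in no fit without a library of 3 h or 6 h. Of 15 Kruppel-like factor genes 9 fell and 1 rose (median -0.14), 5 falling without replicate 2 of 3 h. Beside Klf10, Klf3 measured 184 and 185 CPM at 3 h and 144 and 142 at 6 h (-0.37 ± 0.04), Klf16 fell by 0.35 and Klf13 by 0.30. In the MYC, MAX and MXD network 4 of 13 fell and 2 rose (median -0.08), and none rose with DESeq2 or without either 3 h library. Mnt, which encodes a MAX-binding antagonist of MYC, measured 95.1 and 94.5 CPM at 3 h and 58.2 and 60.6 at 6 h (-0.67 ± 0.04, adjusted p = 3.76e-08). Mga, of the same network, fell by 0.32 and Max itself by 0.25 (not called without replicate 2 of 3 h, where 2 of the network were called lower).

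The sterol synthesis genes that passed the test also fell. They are driven by SREBP2 when membrane cholesterol is low. Of 25 tested 12 fell and none rose (48.0% lower, median -0.18). Among all genes tested 11.8% were called lower and 9.89% higher. At an average log2 CPM of 7 to 9, where Insig1 and Hmgcs1 lie, the shares were 34.4% and 3.92%. Insig1, which retains the SREBP complex in the endoplasmic reticulum and is itself a target, measured 148 and 150 CPM at 3 h and 93.7 and 104 at 6 h (-0.59 ± 0.05, adjusted p = 3.56e-07). Hmgcs1 measured 315 and 325 CPM at 3 h and 246 and 252 at 6 h (-0.36 ± 0.03) and the demethylase gene Cyp51 123 and 122 CPM at 3 h and 88.3 and 92.97 at 6 h (-0.43 ± 0.04). Fatty acid synthesis genes, 15 tested, had 2 higher and 2 lower with a median of 0.02. Elovl6 (-0.15), Acaca (0.15), Mid1ip1 (0.28) and Scd1 (-0.12) were called, and each lost its call in at least 1 fit without a library.

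Genes of the integrated stress response did not move as a unit. This pathway raises translation of ATF4, which then drives amino acid transport and synthesis genes and the pro-apoptotic arm with CHOP. Of 34 tested 14 fell and 7 rose (41.2% and 20.6%), with a median of -0.11. Falls numbered 8 and 9 without replicate 1 and 2 of 3 h. The amino acid transporter genes Slc7a5 (245 and 235 CPM at 3 h and 204 and 191 at 6 h, -0.28 ± 0.04) and Slc7a3 (111 and 108 CPM at 3 h and 89.5 and 89.4 at 6 h, -0.30 ± 0.04) fell. Chosen after their values were seen, Atf4 measured 224 and 226 CPM at 3 h and 201 and 199.5 at 6 h (-0.17 ± 0.03, adjusted p = 0.00271) and Asns 540.2 and 530.1 CPM at 3 h and 439 and 481 at 6 h (-0.22 ± 0.05, not called by DESeq2). In the other direction, the secreted glycoprotein gene Stc2 measured 9.22 and 10.2 CPM at 3 h and 14.5 and 17.7 at 6 h (0.73 ± 0.11, adjusted p = 0.00014) and Slc1a4 rose by 0.34. Ddit3, which encodes CHOP, measured 9.22 and 7.96 CPM at 3 h and 13.3 and 12.2 at 6 h (0.56 ± 0.10), its targets Chac1 4.399 and 3.52 CPM at 3 h and 6.63 and 7.62 at 6 h (0.85 ± 0.16) and Trib3 12.2 and 14.1 CPM at 3 h and 21.5 and 17.4 at 6 h (0.56 ± 0.11), all 3 chosen after their values were seen. Of 22 genes for chaperones of the endoplasmic reticulum 7 rose and 3 fell (median 0.05), by small steps such as 0.17 in Pdia4 and 0.12 in Hsp90b1. Without TMM factors 10 rose and none fell, and 2 rose without either 3 h library. Of 21 cytosolic heat shock genes 4 rose and none fell (median 0.02), with Hsph1 at 0.20, Ahsa1 at 0.17 and Hspa8 at 0.13, the last 2 not called without replicate 1 of 3 h.

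Autophagy and lysosome genes were lower in 14 of 34 cases and higher in 2 (median -0.09), with 7 and 9 lower without replicate 1 and 2 of 3 h and 9 without replicate 2 of 6 h. Folliculin and its partners regulate mTORC1 and the TFE factors at the lysosome, and loss of folliculin is known to hold ES cells in the naive state. Fnip2, a folliculin partner, measured 136 and 134 CPM at 3 h and 83.5 and 85.8 at 6 h (-0.68 ± 0.04, adjusted p = 2.2e-08). Flcn, folliculin itself, measured 65.2 and 65.4 CPM at 3 h and 44.7 and 41.9 at 6 h (-0.59 ± 0.05, adjusted p = 6.45e-07). The paralog Fnip1, chosen after its values were seen, fell by 0.37. Atg16l1 and the initiating kinase gene Ulk1 fell by 0.37 and 0.31. 5-Ph-IAA is an indole, and indoles can bind the aryl hydrocarbon receptor, so its targets were listed. Of 13 genes of that response and of the linked antioxidant response 3 rose and 5 fell (median -0.09). Cyp1b1, a receptor target, measured 89.5 and 92.2 CPM at 3 h and 135 and 127 at 6 h (0.53 ± 0.04, adjusted p = 5.99e-07). Gclc, of glutathione synthesis, measured 112 and 117 CPM at 3 h and 82.7 and 74.99 at 6 h (-0.54 ± 0.05), heme oxygenase Hmox1 fell by 0.37 and the thioredoxin reductase gene Txnrd1 by 0.18.

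Cell cycle genes are given by phase. Of 38 genes of replication licensing and DNA synthesis 22 fell and none rose (57.9%), with a median of -0.17, and 3 rose without scaling factors. Among all genes tested 11.8% were called lower, and 34.4% of those at an average log2 CPM of 7 to 9. The histone mRNA binder gene Slbp measured 103 and 106 CPM at 3 h and 81.5 and 81.1 at 6 h (-0.36 ± 0.04, adjusted p = 1.65e-05). Dbf4, the activator of the CDC7 kinase, measured 195 and 199.6 CPM at 3 h and 154 and 162 at 6 h (-0.32 ± 0.04), the licensing factor gene Cdt1 141 and 142 CPM at 3 h and 112 and 116 at 6 h (-0.31 ± 0.04) and Uhrf1 535 and 539 CPM at 3 h and 465 and 459.6 at 6 h (-0.22 ± 0.03). Pcna, the sliding clamp, chosen after its values were seen, fell by 0.17. Without replicate 2 of 3 h 14 members were called lower. Of 37 genes of G2 and M phase 3 rose and 4 fell (median -0.03). That balance depended on the setting: 7 rose and 1 fell with the feeder covariate, 6 rose and 3 fell without scaling factors, and 6 rose and 2 fell without replicate 1 of 6 h. Leaving out replicate 1 of 3 h gave 3 rises and 2 falls, and leaving out the other 3 h library 2 and 1. Kif23, a kinesin of cytokinesis, rose by 0.32 and the phosphatase gene Cdc25b by 0.35, while Ccnb1 fell by 0.20 and Bub3 by 0.18, both not called without replicate 2 of 3 h. Of 35 kinesin motor genes 11 rose and 2 fell (median 0.11). Kif26b measured 32.6 and 36.3 CPM at 3 h and 57.8 and 46.3 at 6 h (0.59 ± 0.08) and Kif21b 24.4 and 24.8 CPM at 3 h and 33.3 and 30.6 at 6 h (0.37 ± 0.07). With the feeder covariate 7 kinesin genes were called higher, and 6 without replicate 2 of 3 h. Of 16 replication-dependent histone genes 2, Hist1h1c (0.33) and Hist1h2be (0.94), rose and none fell (median 0.16). DESeq2 did not call the first and gave no adjusted p for the second, and these mRNAs lack polyA tails, so the polyA libraries capture few of them.

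Targets of p53 were lower in 10 of 32 cases and higher in 1 (median -0.08), with 4 lower without either 3 h library and 6 without replicate 2 of 6 h. Gtse1, a mitotic inhibitor of p53, measured 194 and 188 CPM at 3 h and 152 and 154 at 6 h (-0.32 ± 0.04). The nuclease gene Aen fell by 0.27 and Trp53inp1 by 0.26. The rise was in Rrm2b, a ribonucleotide reductase subunit, with 12.2 and 12.5 CPM at 3 h and 18.1 and 21.1 at 6 h (0.67 ± 0.09, adjusted p = 9.62e-05).

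Within the machinery that DDX6 belongs to, the mRNA changes were small. The counts below are to be set beside 11.8% called lower and 9.89% called higher among all genes tested. At an average log2 CPM of 7 to 9 these shares were 34.4% and 3.92%. Of 28 genes for DDX6 partners, decapping and P-body factors 5 fell and none rose (17.9%), with a median of -0.08, and 1 fell without either 3 h library or with DESeq2. Without scaling factors 2 fell and 2 rose. Dcp2, the decapping enzyme, measured 337 and 347 CPM at 3 h and 300.1 and 296 at 6 h (-0.20 ± 0.03, adjusted p = 0.000499). Lsm2 (-0.20), Patl1 (-0.14) and Lsm7 (-0.24) were called, but none of them by DESeq2. Of 21 genes of CCR4-NOT, PAN and the BTG and TOB adaptors 9 fell and 1 rose (42.9%), with a median of -0.13, and 5 fell without replicate 2 of 3 h. The deadenylase gene Cnot8 measured 71.5 and 74.02 CPM at 3 h and 53.8 and 56.8 at 6 h (-0.40 ± 0.05, adjusted p = 2.63e-05), and the adaptor gene Tob2 68.3 and 65.4 CPM at 3 h and 51.9 and 52.01 at 6 h (-0.36 ± 0.05). Btg1 fell by 0.30 and the ubiquitin ligase subunit gene Cnot4 by 0.25. Of 20 microRNA silencing and processing genes 6 fell and 2 rose (median -0.05), 2 falling without either 3 h library or with DESeq2. Dgcr8, the RNA-binding partner of Drosha, measured 87.5 and 87.3 CPM at 3 h and 70.01 and 74.3 at 6 h (-0.28 ± 0.04). The GW182 genes split, Tnrc6b by 0.26 and Tnrc6c by -0.15, the latter not called by DESeq2. Of 34 genes of nonsense-mediated decay, the exosome and XRN nucleases 7 fell and 1 rose (median -0.07), 2 falling without either 3 h library or without replicate 1 of 6 h. Smg5, an adaptor of that decay pathway, measured 217 and 216 CPM at 3 h and 178 and 177 at 6 h (-0.29 ± 0.04), Casc3 fell by 0.22 and Smg6 (-0.18) lost its call in 3 fits without a library.

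Because DDX6 acts in microRNA silencing, targets of the main ES cell microRNAs were looked at. The miR-290 and miR-302 families share a seed, bases 2 to 8, given in capitals in the RefSeq mature sequences.
miR-291a-3p: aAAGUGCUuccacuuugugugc
miR-294-3p: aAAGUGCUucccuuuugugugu
miR-295-3p: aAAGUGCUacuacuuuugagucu
miR-302b-3p: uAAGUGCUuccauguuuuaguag
miR-302d-3p: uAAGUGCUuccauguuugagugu
The match AGCACTT was absent from the 3′ UTRs of 11130 genes, present once in 1940 and at least 2 times in 445. The median log2 fold changes of these groups were 0.006, 0.013 and -0.003. The share called higher was 10.5%, 12.8% and 11.5%, and the share called lower 12.3%, 15.2% and 19.6%. Among 3′ UTRs of 2000 to 4000 nt, where length differs less, the shares called lower were 15.2%, 13.5% and 19.6%. Among those over 4000 nt, a group without an upper length limit of note, they were 13.9%, 20.3% and 21.6%. MicroRNAs themselves are not captured in these libraries.

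SR proteins and their kinases had the highest share of falls of any list. SR proteins guide splicing, and their genes are known to regulate themselves and one another through poison exons degraded by nonsense-mediated decay. Of 24 genes tested 17 fell and 2 rose (70.8% and 8.33%), with a median of -0.17. Over all genes tested 11.8% were called lower and 9.89% higher. At an average log2 CPM of 7 to 9 the shares were 34.4% and 3.92%. Srsf5 measured 489 and 499.5 CPM at 3 h and 374 and 373 at 6 h (-0.40 ± 0.03, adjusted p = 3.23e-07), Srsf2 655 and 656 CPM at 3 h and 518 and 521 at 6 h (-0.34 ± 0.03, adjusted p = 1.12e-06), Tra2a 295 and 300.3 CPM at 3 h and 232 and 231 at 6 h (-0.36 ± 0.04) and Srsf6 458 and 459 CPM at 3 h and 371 and 378 at 6 h (-0.29 ± 0.03). In each the 3 h libraries were at or above the level of 0 h. Exons of another gene overlap 25.3% of those of Srsf2 on the opposite strand. Without replicate 1 and 2 of 3 h 11 and 10 members were called lower. Host genes of small nucleolar RNAs, whose spliced transcripts are mostly removed by nonsense-mediated decay, fell in 10 of 15 cases with none higher (median -0.27). Snhg5 measured 114 and 112 CPM at 3 h and 91.3 and 92.7 at 6 h (-0.29 ± 0.04, adjusted p = 7.36e-05), Snhg3 fell by 0.41, Snhg1 by 0.27 and Snhg12 by 0.32. Snhg3 shares 71.5% of its exon length with a gene on the other strand.

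Most genes of the translation apparatus were not called. Of the cytosolic ribosomal protein genes 25 of 77 fell (32.5%) and none rose, with a median of -0.07. Most of these genes are abundant, and 34.4% of all genes with an average log2 CPM of 7 to 9 were called lower. Rpl27 measured 244 and 239 CPM at 3 h and 215 and 219 at 6 h (-0.15 ± 0.03) and Rps19 503 and 495 CPM at 3 h and 454 and 454 at 6 h (-0.14 ± 0.03). The larger fall of Rps10 (-0.57) was in a gene counted at only 13.3 CPM at 3 h, whose exons overlap another gene. The count of ribosomal protein genes called lower was 2 and 4 when replicate 1 and 2 of 3 h were left out, 11 when replicate 1 of 6 h was, and 30 when replicate 2 of 6 h was. It was 9 without scaling factors and 13 with DESeq2 or with the feeder covariate. Of 40 translation factor genes 10 fell and 1 rose (median -0.07), 2 and 4 falling without replicate 1 and 2 of 3 h and 4 without scaling factors. Eif1, which guards start codon choice, measured 333 and 312 CPM at 3 h and 248 and 232 at 6 h (-0.43 ± 0.04, adjusted p = 2.17e-06), and Eif4g3, a scaffold of initiation, rose from 84.7 to 111 CPM (0.39 ± 0.04). Of 36 ribosome biogenesis genes 15 fell and none rose (median -0.09), with 8 falling without either 3 h library. Among them were the nucleolar GTPase gene Gnl3 (279 and 291 CPM at 3 h and 231 and 238 at 6 h, -0.28 ± 0.04), Wdr43 (-0.25), Nop2 (-0.23) and Rrs1 (-0.25). Oxidative phosphorylation genes had 5 of 36 lower and none higher (median -0.05), with Cox7c at -0.22, and 1 or 2 lower in each fit without a library of 3 or 6 h. Of 31 proteasome genes 1, Psma2 (-0.14), was called lower and none higher (median -0.04). That call was not made by DESeq2.

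**Figure D4:**
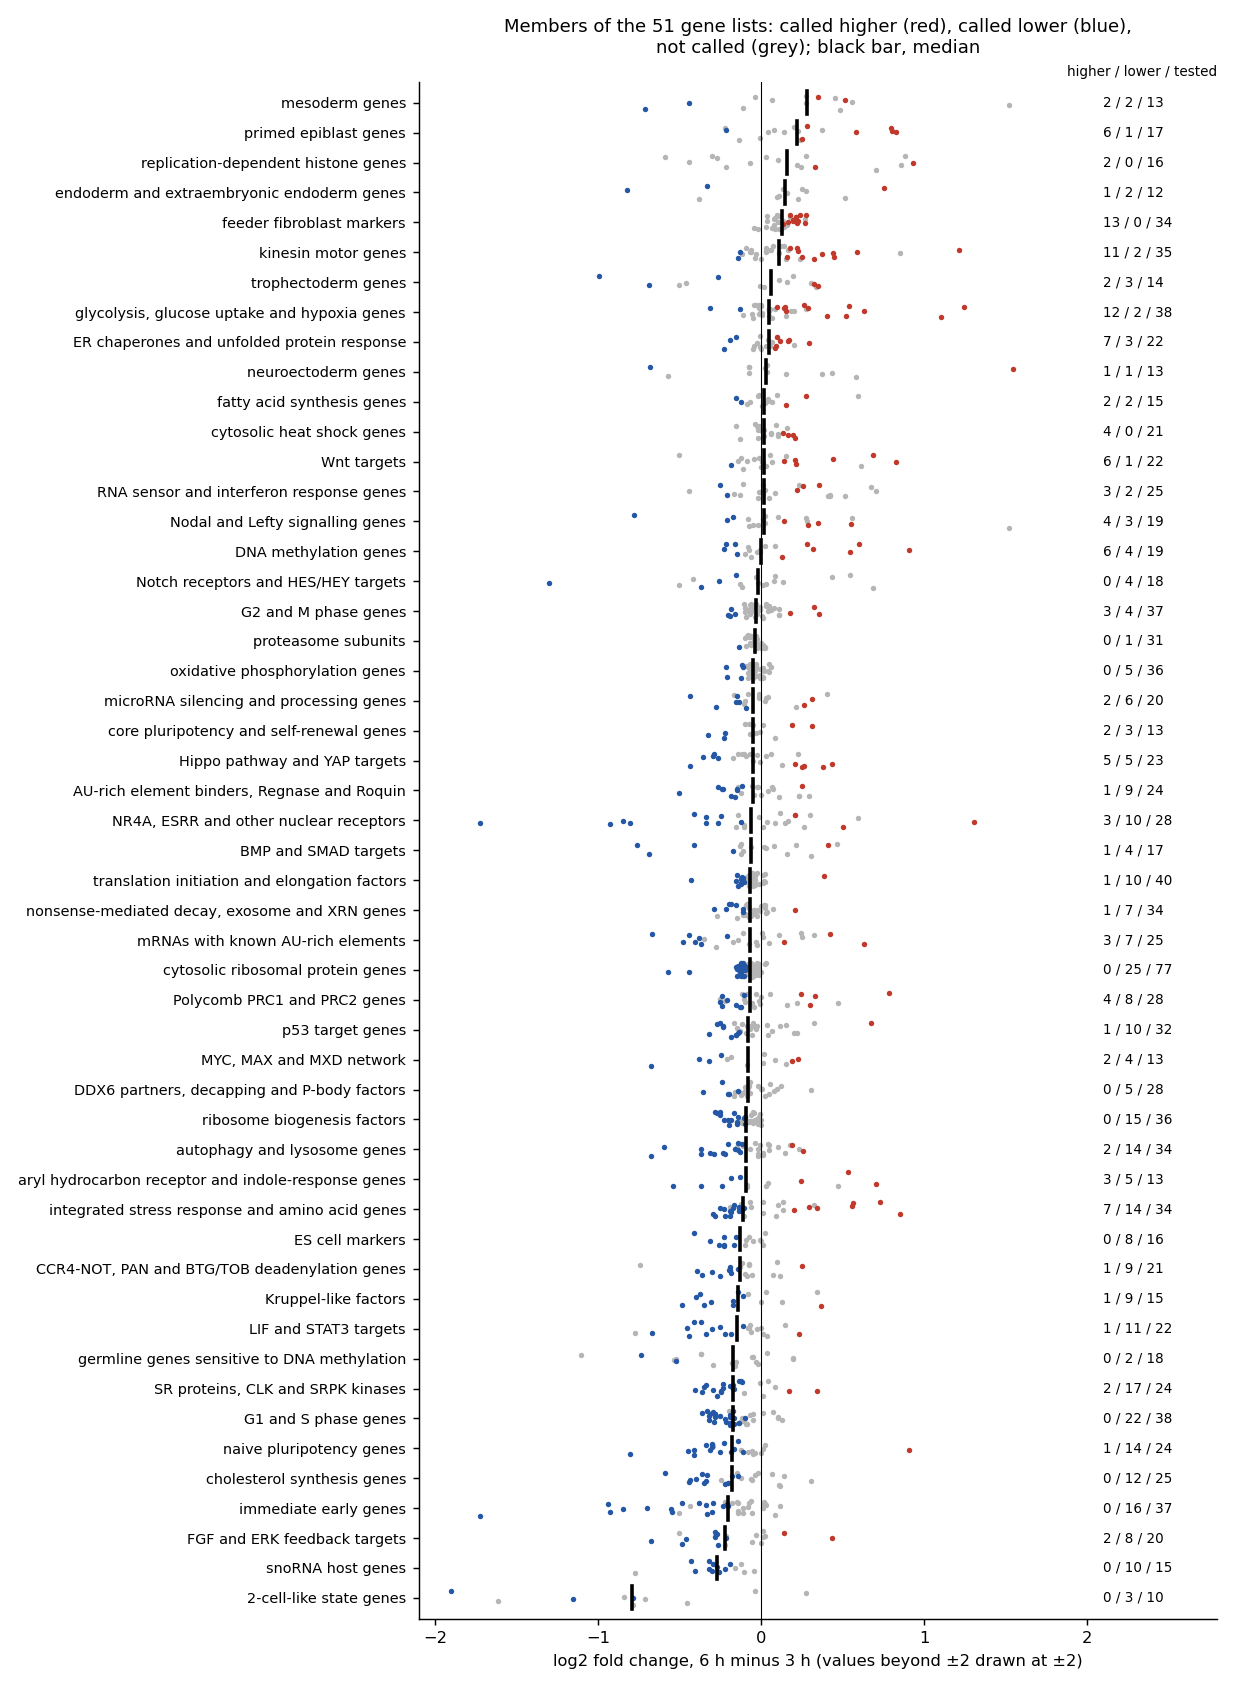
Each row is 1 of the 51 gene lists, ordered by median, and each point is the fitted log2 fold change between 3 and 6 h (horizontal axis) of 1 member, red if called higher, blue if called lower and grey if not called, with black bars for medians and the counts at the right. The lowest medians are those of 2-cell-like genes (-0.79), snoRNA host genes (-0.27) and FGF and ERK feedback targets (-0.22), and mesoderm genes (0.28) and primed epiblast genes (0.22) lie at the top.

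Chromatin genes changed in both directions. Of 19 DNA methylation genes 6 rose and 4 fell. Beside Prdm14 and Dnmt3a, Tet3, an oxidase of methylated cytosine, measured 13.3 and 12.2 CPM at 3 h and 20.8 and 18.04 at 6 h (0.60 ± 0.10, adjusted p = 0.000413), while Uhrf1, which recruits the maintenance methyltransferase, fell and Tet1, chosen after its values were seen, fell by 0.16. Of 28 Polycomb genes 8 fell and 4 rose (median -0.07), 4 and 5 falling without replicate 1 and 2 of 3 h and 4 without scaling factors. The PRC2 core genes Suz12 and Eed fell by 0.25 and 0.24, and the accessory genes Jarid2 and Aebp2 by 0.21 and 0.24. Among 18 germline genes that DNA methylation silences, 2 fell and none rose (median -0.17). Tex19.1 measured 52.1 and 57.5 CPM at 0 h, 67.5 and 66.02 CPM at 3 h and 40.5 and 39.8 at 6 h (-0.73 ± 0.06, adjusted p = 1.57e-07). The other, Sycp3, was at 4.49 and 4.72 CPM at 3 h and 2.77 and 3.596 at 6 h and shares 52.2% of its exon length with a gene on the opposite strand. It was not called by DESeq2, without either 3 h library or without replicate 1 of 6 h, and with the feeder covariate its log2 fold change was -0.24, also not called. Of 25 RNA sensor and interferon response genes 3 rose and 2 fell (median 0.02). Mavs, the mitochondrial adaptor of RNA sensors, measured 47.4 and 46.03 CPM at 3 h and 59.8 and 59.6 at 6 h (0.35 ± 0.06), Irf3 rose by 0.26 (not called by DESeq2), and Trim25, a ubiquitin ligase of the RIG-I pathway, fell by 0.21.

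The step from 3 to 6 h was then compared with the step from 0 to 3 h in the same fit. Both steps use the same 3 h libraries, with opposite sign, so a 3 h level that is off in one direction enters both. The change differed between the steps in 771 genes (4.9%), with 299 higher (1.9%) and 472 lower (3.0%) in the second step than in the first. Of these, 288 were also called higher and 465 called lower between 3 and 6 h, and 18 were not called there. The first step alone had 22 calls (0.14%). Leaving out a 3 h library gave 78 calls (replicate 1) or 58 (replicate 2) in place of 771, and leaving out replicate 2 of 0 h gave 1218.

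The 6 genes named next had the smallest adjusted p for this difference among genes passing the filters used for the largest changes. Those filters ask for no overlap between 3 h and 6 h, so a change after 3 h is part of the choice. Spen, a large nuclear corepressor, measured 327 and 334 CPM at 0 h, 312 and 309 CPM at 3 h and 189 and 183 at 6 h. Its second step was -0.74 ± 0.04 and differed from the first by -0.65 (adjusted p = 3.76e-05). Mgea5, which removes O-GlcNAc from proteins, measured 327 and 346 CPM at 0 h, 354 and 356 CPM at 3 h and 237 and 241 at 6 h (difference -0.65, adjusted p = 3.77e-05). Slc30a1, a zinc exporter gene, and Zbtb7a, a zinc finger repressor gene, had differences of -0.84 and -0.64. Tex19.1 rose by 0.28 in the first step and fell in the second, and Lef1 had an uncalled change of -0.21 before its rise (differences -1.02 and 1.03, adjusted p = 3.76e-05 and 4.36e-05). In Elf3 (0.31, then 0.33), Amotl2 (-0.28, then -0.29) and Trim25 (-0.34, then -0.21) no difference between the steps was called (adjusted p = 0.935, 0.932 and 0.265). Among the lists, 15 of 38 G1 and S phase genes, 8 of 24 SR protein and kinase genes, 8 of 24 naive genes and 8 of 25 sterol synthesis genes had a lower second step. Of 34 feeder markers 12 had a higher second step.

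**Figure D5:**
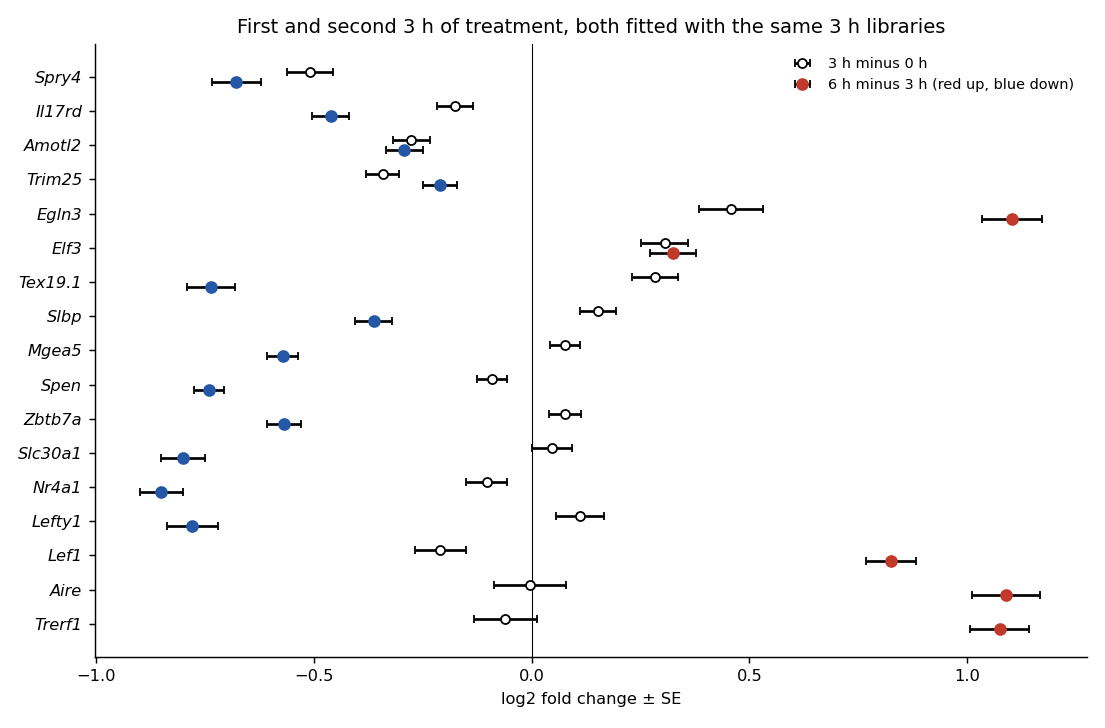
The fitted log2 fold change ± SE is plotted for 17 genes, open circles for 3 h minus 0 h and filled circles for 6 h minus 3 h (red up, blue down). Spry4, Amotl2 and Elf3 move in the same direction in both steps, Tex19.1 turns from 0.28 to -0.73, and Spen, Nr4a1, Aire and Trerf1 move mainly in the second.

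Properties of the transcripts were related only weakly to the change. Spearman's rho across 13515 genes was 0.10 for GC content of the 3′ UTR, and across 13684 genes it was 0.114 for the coding sequence and 0.101 for the whole transcript. From the fifth of genes with the lowest 3′ UTR GC content to the fifth with the highest, the share called lower went from 15.2% to 10.6% and the share called higher from 7.58% to 13.3%. For 3′ UTR length rho was 0.0126, and for average level it was -0.237 across the 15748 genes tested. Genes are not independent replicates, and all these values come from the same 4 libraries. By gene type, 12.9% of 13717 protein-coding genes were called lower and 10.7% higher, and 4.18% and 9.32% of 311 long intergenic non-coding RNAs.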

How the data were processed

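RNA-seq libraries from polyA RNA were made with a strand-keeping kit, per the labels' protocols, from D6AdP ES cells at 0, 3 and 6 h of 5-Ph-IAA, 2 libraries each. The authors deposited raw counts per gene. Per the submitters' processing notes, fastp 0.22.0, HISAT2 2.2.1, featureCounts 2.0.3 and the GRCm38/mm10 build were used. The sources used here give neither the annotation release nor the strand setting of the counting. Gene IDs were matched to GENCODE M21 (55227 of 55487), and the IDs without a symbol held 0.00294% of counts.

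Libraries were grouped by labelled time. The deposited counts were filtered with filterByExpr (minimum count 10), scaled by TMM and fitted with edgeR 4.0.16 (R 4.3.3) by the quasi-likelihood test over all 6 libraries, which had 3 residual degrees of freedom. The contrasts were 6 h minus 3 h, and that step minus the step from 0 to 3 h. Genes were called at a Benjamini-Hochberg adjusted p under 0.05 over all 15748 genes tested, and the procedure was tested on simulated counts. CPM are counts divided by the TMM-scaled library total. Lists are given by counts and medians only. The comparison, the 51 gene lists and the naming rule were chosen with earlier results of these data known.

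Genes are named by this rule: Ddx6 and Dcp1a, the 12 largest called rises and the 12 largest called falls. Also named are the 6 called genes with the smallest adjusted p for the difference between steps. The rises, falls and these 6 needed an average log2 CPM of 1 or more and a proper gene name. Their 3 h and 6 h libraries also had to show no overlap. Up to 4 called members of each list with the smallest adjusted p complete the rule. Any other gene is said to have been chosen after its values were seen. A few genes meeting these criteria are not reported here.

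Alternatives were other scaling factors, other filters, DESeq2 1.42.0, limma 3.58.1 (voom), a fit of only the 4 libraries of 3 and 6 h, a replicate block, the mean of the feeder markers as a covariate, thinning to the smallest total, removal of genes in which ribosomal RNA reads pile up, and leaving out each library. A legacy form of the edgeR test was added after seeing the data. Motifs were searched on both strands of RefSeq promoter windows (GRCm38.p6), 3′ UTR features in 1 transcript per gene of GENCODE M21. The SE values come from the quasi-likelihood fit and so cover the spread among libraries as well as counting error. Floors cover counting error only.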

Additional observations from a re-analysis of the deposited data

Results flagged for a closer look

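The difference between the second step (3 to 6 h) and the first (0 to 3 h), tested as a contrast within 1 edgeR fit, was called in 771 genes, and this difference between periods is why the result is listed here. Examples are Spen, with a difference of -0.65 on the log2 scale (adjusted p = 3.76e-05), and Lef1, with 1.03 (adjusted p = 4.36e-05). Both steps share the 3 h libraries, and the feeder markers were lowest in those libraries. The part of either in the 771 calls was not tested beyond the counts without each 3 h library, 78 and 58, and with the feeder marker covariate, 308.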

How the results depend on the processing

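The comparison of 6 h with 3 h called 3414 genes, and the alternatives that moved that count by more than 1.5 times were no filter on low counts (1725), DESeq2 (1449) and the feeder marker covariate (2148). The fits that left out a library each ranged from 1514 (without replicate 2 of 3 h) to 3706 (without replicate 1 of 0 h). DESeq2 kept 42.4% of the 3414 calls, all with the same sign, and the feeder covariate kept 1744, with 15 of the 3414 at the other sign. For the difference between the steps, 771 genes in the main analysis, the counts were 41 with no filter, 278 with DESeq2, 308 with the feeder covariate and 1538 with the replicate block, and 58 (no replicate 2 of 3 h) to 1218 (no replicate 2 of 0 h) when 1 library was left out. With the replicate block the comparison of 6 h with 3 h called 4186 genes, among them all 3414. Replicate numbers only name the libraries: deviations of same-numbered libraries correlated at 0.0372, 0.0401 and -0.0212 across genes, so the block is given only as an alternative. Of 237 genes covered by the naming rule or chosen later, 230 were called, 158 of them whichever 1 of the 6 libraries was removed, 179 by DESeq2 and 181 with the feeder covariate. Values that changed sign were those of Nanog and Sox2, which were not called in the main analysis or in the fits where the sign changed, and of 2 genes that rest on 1 library. Nanog was at 0.04 without scaling factors, 0.05 with the feeder covariate, 0.0 with the filter of 1 CPM, with voom and with ribosomal RNA read collectors removed, and -0.02 to 0.03 when single libraries were left out. Leaving out a library put Sox2 between -0.03 and 0.06, with -0.01 when replicate 2 of 3 h was dropped. It put Ldb1 between -0.11 (no replicate 2 of 6 h) and 3.29, and Dpp10 between -0.46 (no replicate 1 of 6 h) and 3.61, and Dpp10 was at -0.73 with the feeder covariate. Ddx6 and Sox2 were called with the feeder covariate. The cause of these differences was not tested, except that the fits without a library have fewer samples by construction. Depth limits the lowest genes: 3 counts stand for 0.137 to 0.183 CPM.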

Other observations

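A few further genes with roles near the pathways above are given here, all chosen after their values were seen. Rnf43, a ubiquitin ligase that removes Wnt receptors, measured 1.84 and 1.29 CPM at 3 h and 2.47 and 2.58 at 6 h (0.69 ± 0.23, adjusted p = 0.0445 with edgeR). Adm, which encodes the vasoactive peptide adrenomedullin, measured 3.17 and 2.498 CPM at 3 h and 3.799 and 4.401 at 6 h (0.54 ± 0.18, adjusted p = 0.0456 with edgeR). Lin28b, an inhibitor of let-7 processing, measured 10.97 and 11.7 CPM at 3 h and 14.2 and 14.1 at 6 h (0.32 ± 0.09, adjusted p = 0.0191 with edgeR). Tfeb, a master factor of lysosome genes, measured 73.03 and 72.7 CPM at 3 h and 63.5 and 61.8 at 6 h (-0.22 ± 0.05, adjusted p = 0.00645 with edgeR). Of these 4 DESeq2 called only Tfeb, and each lost its call without replicate 2 of 3 h.

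A few large fitted values rest on 1 library of 6 h and are given as values only, again for genes chosen after their values were seen. Ldb1, a cofactor of LIM-domain proteins, measured 190.5 and 205 CPM at 0 h, 200.5 and 198 CPM at 3 h and 184 and 1940 at 6 h, with a fitted log2 fold change of 2.42 ± 0.57 (adjusted p = 0.00607 with edgeR) that was called neither by DESeq2 nor by voom. Only replicate 2 of 6 h is high. Dpp10 measured 0.236 and 0.509 CPM at 3 h and 4.64 and 0.268 at 6 h, with only replicate 1 of 6 h high, and Gm43960 had 0 counts in both 3 h libraries, 45.9 CPM in replicate 1 of 6 h and 0.215 in replicate 2.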
